A study of Mus musculus with 74 samples.

Results

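A set of 10 of the 24851 genes listed for RNA was followed here, the leukocyte integrin subunits Itgal, Itgam, Itgax, Itga4, Itga5, Itgav, Itgb1, Itgb2 and Itgb7 and their counter-receptor gene Icam1. They were taken by symbol, and all 10 were listed and passed the filter on low values (a mean of at least 1 normalized read). The series asks what the phosphorylation of the histone variant H3.3 does in macrophages stimulated with lipopolysaccharide (LPS), a bacterial cell wall component. RNA was measured in line 3205, in line 264 and in RAW264.7, with 2 libraries each at 0, 60 and 120 min of LPS, 18 in all. RAW264.7 is a mouse macrophage-like line, and the labels name it as the source of lines 3205 and 264. The series describes hypomorphic lines and CRISPR-made double knockouts of H3f3a and H3f3b, both coding for H3.3. Whether line 3205 or line 264 is a hypomorph or a knockout, and whether each is 1 clone, is not in the labels used here. Primary macrophages received LPS from S. typhosa at 100.0 ng/mL, while no dose is given for the lines. A second set of tables holds 12 ChIP libraries of primary mouse bone marrow macrophages, at 60 and 0 min of LPS with 1 library for each of 6 targets. These list 193 and 195 genes chosen by the authors, and Icam1 is the 1 gene of the 10 among them.

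Integrins are cell surface receptors made of an α and a β subunit that hold cells to matrix and to other cells. The β2 subunit, from Itgb2, pairs with αL (Itgal) as LFA-1, with αM (Itgam) as Mac-1 and with αX (Itgax), and LFA-1 and Mac-1 bind ICAM1. The β1 subunit, from Itgb1, pairs with α5 (Itga5) as a fibronectin receptor and with α4 (Itga4), which binds VCAM1 and fibronectin. α4 also pairs with β7 (Itgb7), which binds MAdCAM1 in gut venules, and αV (Itgav) binds vitronectin and osteopontin with several β subunits. Leukocytes keep most of these receptors inactive until signals inside the cell reach the adaptors talin and kindlin. Icam1 is a widely used target gene of NF-κB, the transcription factor that LPS activates.

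The 3 genes of the 10 whose RNA rose in at least 1 LPS response were Icam1, Itga5 and Itgav, and the 250 bases before their start sites are shown for that reason, from RefSeq on GRCm38.p6. The stretches are chr9:21015690-21015939 on the plus strand, chr15:103366792-103367041 on the minus strand and chr2:83724147-83724396 on the plus strand, each written 5′ to 3′. Capitals mark the matches to 3 motifs searched on both strands, GGANNTTCC (a κB-like sequence), TGANTCA (AP-1) and GAGGAA (the core bound by PU.1), with no overlap between different motifs.
Icam1: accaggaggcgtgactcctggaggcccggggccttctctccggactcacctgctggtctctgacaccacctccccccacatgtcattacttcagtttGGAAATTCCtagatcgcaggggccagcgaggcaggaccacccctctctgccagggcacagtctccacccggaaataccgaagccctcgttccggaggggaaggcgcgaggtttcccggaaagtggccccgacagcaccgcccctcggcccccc
Itga5: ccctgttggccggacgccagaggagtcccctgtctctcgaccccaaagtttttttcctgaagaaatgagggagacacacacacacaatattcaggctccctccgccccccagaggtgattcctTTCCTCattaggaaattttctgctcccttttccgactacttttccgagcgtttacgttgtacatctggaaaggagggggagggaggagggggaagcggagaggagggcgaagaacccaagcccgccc
Itgav: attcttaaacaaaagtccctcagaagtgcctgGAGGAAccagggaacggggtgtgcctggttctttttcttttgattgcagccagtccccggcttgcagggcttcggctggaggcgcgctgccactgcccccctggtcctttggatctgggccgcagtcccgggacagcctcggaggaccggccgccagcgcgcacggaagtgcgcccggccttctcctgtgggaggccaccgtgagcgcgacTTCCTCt
The Icam1 stretch held GGAAATTCC, which matches GGANNTTCC on both strands, 153 to 145 bases before the start site. The Itga5 stretch held GAGGAA on its minus strand, and the Itgav stretch held 1 match on each strand. Over windows of 300 bases (250 before to 50 after a start site), GGANNTTCC occurred in 4.26% of 32851 mouse promoters, TGANTCA in 7.81% and GAGGAA in 28.3%. Of the 10 genes 8 had a promoter in that table, and within these 8 windows GGANNTTCC occurred in Icam1 alone and TGANTCA in Itgax alone. GAGGAA occurred there in Itga5, Itgav, Itgam, Itgb1 and Itgb7, of which Itgam, Itgb1 and Itgb7 had no called LPS response. On GRCm38.p6 Icam1 spans chr9:21015940-21028814, Itga5 chr15:103344286-103366791 and Itgav chr2:83722303-83806917, and Itgal (chr7:127296139-127335137), Itgam (chr7:128062640-128118491) and Itgax (chr7:128129526-128150657) lie on 1 chromosome. The Itgav start site used for the promoter lies inside the span of the gene.

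Library depth was 13.1 M to 53.9 M reads, and the deposited value of a gene is its read count divided by 1 size factor for its library, called normalized reads here. Libraries of all 9 groups were scaled together, so that levels of 1 gene can be set side by side across lines and times, but levels of different genes cannot, since no length correction was made. H3f3a stood at 37.5 to 76.2 normalized reads in line 3205 and at 172 to 236 in line 264, against 2055 to 3109 in RAW264.7. H3f3b stood at 7177 to 13284 in line 3205 and 5642 to 17764.5 in line 264, against 13623 to 34155 in RAW264.7. The summed level of 9 listed macrophage markers was 186493 to 252090.0 in line 3205 and 117520.0 to 195672 in line 264, against 351698 to 463313 in RAW264.7. Every library of both edited lines was thus below every RAW264.7 library in that sum, beside each difference from RAW264.7 given below, and its part in them was not tested. Of these markers Cd163 was at 0 in all RAW264.7 libraries. Of the other marker lists, 7 dendritic cell markers summed to 44.4 to 122 in line 3205 and 112 to 169.9 in line 264, against 89.2 to 370.3 in RAW264.7. B cell markers summed to 25 to 158 in line 3205 (nearly all Cd79b), to at most 13.5 in line 264 and to at most 8.71 in RAW264.7. Neutrophil markers summed to at most 38.9 in any library, T and NK cell markers to at most 13.7 and fibroblast markers to at most 3.48. The p-values come from limma with Benjamini-Hochberg adjustment over all genes tested, on log2(normalized reads + 1), with n = 2 libraries per group, and a call is an adjusted p below 0.05. They measure the spread between these libraries, which may be technical, since nothing in the labels says that replicates came from separate cultures. Log2 fold changes are given ± SE, and in bulk RNA fewer cells of a type and less RNA per cell cannot be told apart.

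Of the 10 genes 4 had a called LPS response in at least 1 line. The share of all genes called in at least 1 of these responses was not computed, so this count has no background. Icam1 and Itga5 rose in all 3 lines at both times, Itgav rose and Itga4 fell in RAW264.7 at 120 min, and no other LPS response of the 10 genes passed the test. At 60 min 2 of 10 were called in line 3205 (1.23% of the 17301 genes tested), 2 in line 264 (1.19%) and 2 in RAW264.7 (2.98%). At 120 min 2 of 10 were called in line 3205 (5.03% of 17450), 2 in line 264 (5.43%) and 4 in RAW264.7 (10.6%). With the replicate number as a block, the RAW264.7 count at 120 min was 7 (23.7% of all genes) and that of line 264 was 3 (16.4%). The median log2 fold change of the 10 genes at 120 min was 0.41 in line 3205, 0.22 in line 264 and 0.73 in RAW264.7, beside -0.03, -0.01 and 0.00 over all genes tested. The 60 and 120 min responses of a line share its 0 min libraries. At 120 min against 60 min, a comparison over all 18 libraries added after the data were seen, 1 of 10 was called in line 3205 (2.27% of 17367 genes), 1 in line 264 (2.29%) and 3 in RAW264.7 (7.3%).

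**Figure D1:**
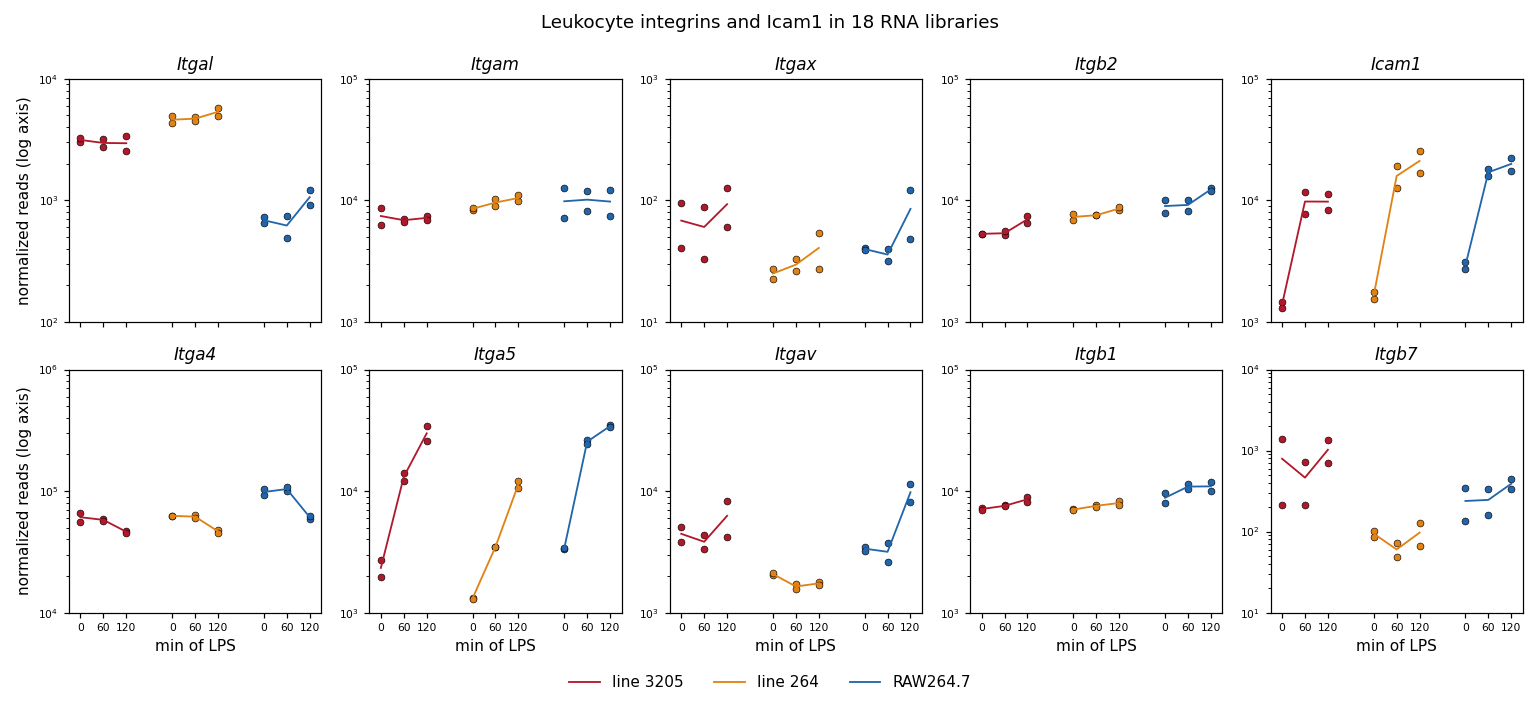
Normalized reads (log axis) of the 10 genes at 0, 60 and 120 min of LPS, with line 3205 at the left, line 264 in the middle and RAW264.7 at the right of each panel. Points are single libraries and lines join the means of 2 libraries, and the axis range differs between panels. Icam1 and Itga5 climb in every line, Itgal lies higher in both edited lines at every time, and Itgav climbs at 120 min in RAW264.7.

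**Figure D2:**
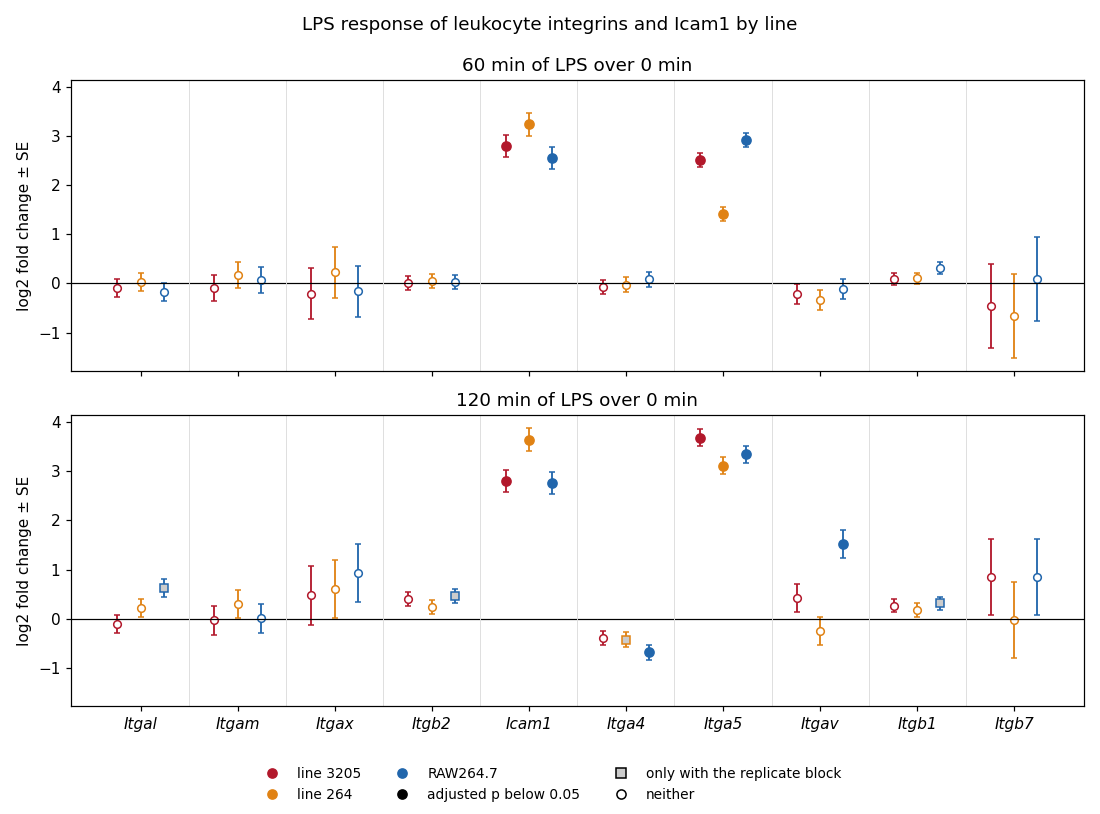
Log2 fold change ± SE (limma, n = 2 libraries per group) of each gene at 60 min (top) and 120 min (bottom) of LPS over 0 min in line 3205, line 264 and RAW264.7. Filled circles have an adjusted p below 0.05, grey squares pass with the replicate block and not without it, and open circles pass neither. Icam1 and Itga5 stand above the other genes in all 3 lines.

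Between the lines 8 of the 10 genes had a called difference in at least 1 comparison, all but Itgam and Itgax. The share of all genes called in at least 1 of these comparisons was not computed, so this count has no background. Itgal was higher in both edited lines than in RAW264.7 at every time, and every other called difference from RAW264.7 was lower in the edited line. Against RAW264.7, line 3205 had 5 of 10 genes called at 0 min (14.3% of all genes), 6 at 60 min (15.4%) and 3 at 120 min (13.9%). Line 264 had 5 called at 0 min (13.2%), 5 at 60 min (15.3%) and 4 at 120 min (13.5%). In line 3205 against line 264, 2 were called at 0 min (10.4%), 3 at 60 min (10.2%) and 5 at 120 min (9% of all genes). With the replicate block the counts at 120 min were 6 for line 3205 (27.2%) and 7 for line 264 (25.3%) against RAW264.7, and line 3205 against line 264 had 5 at 0 min (21.2%) and 6 at 60 min (20.4%). The median log2 difference of the 10 genes was -0.33, -0.53 and -0.37 for line 3205 over RAW264.7 at the 3 times, and -0.65, -0.40 and -0.49 for line 264 over RAW264.7. Over all genes tested the same medians were 0.00, 0.02 and 0.01 for line 3205 and 0.00, 0.01 and 0.01 for line 264. The comparisons of both edited lines use the same RAW264.7 libraries.

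**Figure D3:**
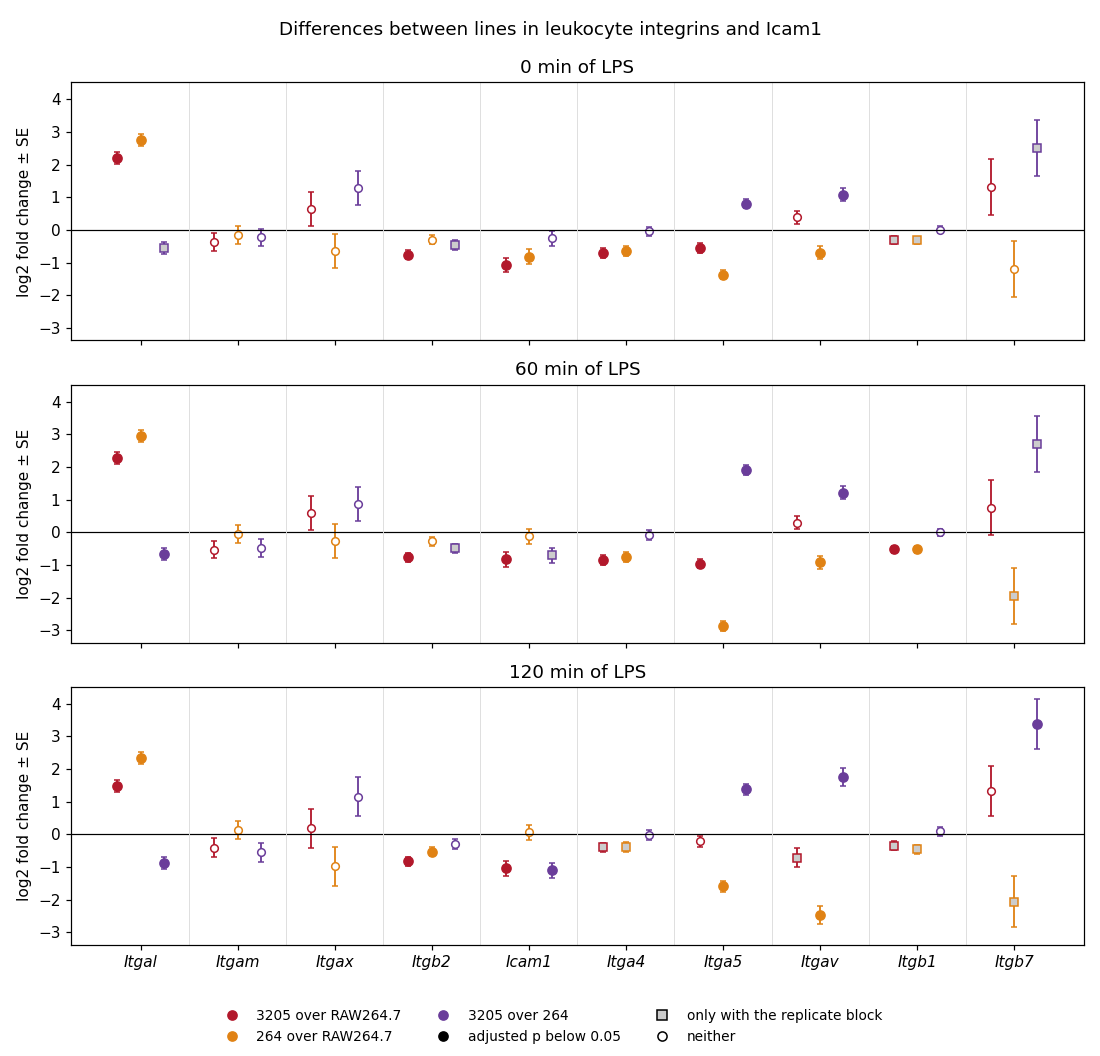
Log2 fold change ± SE (limma, n = 2 libraries per group) between lines at 0, 60 and 120 min of LPS, for line 3205 over RAW264.7, line 264 over RAW264.7 and line 3205 over line 264. Filled circles have an adjusted p below 0.05, grey squares pass with the replicate block and not without it, and open circles pass neither. Itgal is the gene above 0 in both comparisons with RAW264.7 at every time, and Itga5 and Itgav stand higher in line 3205 than in line 264 throughout.

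Icam1 encodes the ligand that LFA-1 and Mac-1 bind, and its RNA rose several-fold with LPS in every line. Line 3205 had 1463 and 1313 at 0 min, 11792 and 7798 at 60 min and 11225 and 8332 at 120 min, in normalized reads. Line 264 had 1537 and 1776 at 0 min, 19109.5 and 12695 at 60 min and 25584 and 16717 at 120 min. RAW264.7 had 3110.4 and 2726 at 0 min, 18207 and 15897 at 60 min and 22504 and 17470.3 at 120 min. Every stimulated library of a line lay above both of its 0 min libraries, and replicate 1 was the higher one in 8 of the 9 groups. The log2 fold change at 60 min was 2.79 ± 0.23, adjusted p 0.000157 in line 3205, 3.24 ± 0.23, adjusted p 6.69e-05 in line 264 and 2.55 ± 0.23, adjusted p 0.000211 in RAW264.7. At 120 min it was 2.80 ± 0.23, adjusted p 9.32e-05 in line 3205, 3.65 ± 0.23, adjusted p 2.67e-05 in line 264 and 2.77 ± 0.23, adjusted p 7.80e-05 in RAW264.7. Between 60 and 120 min the log2 change was 0.01 ± 0.26, 0.41 ± 0.26 and 0.22 ± 0.26 in the same order of lines, with adjusted p of 0.695 or more.

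The level of Icam1 also differed between lines. It was lower in line 3205 than in RAW264.7 at 0 min (-1.07 ± 0.23, adjusted p 0.0112), at 60 min (-0.83 ± 0.23, adjusted p 0.0348) and at 120 min (-1.04 ± 0.23, adjusted p 0.0135), with ranges that did not overlap. In line 264 it was lower at 0 min (-0.82 ± 0.23, adjusted p 0.0409), while at 60 and 120 min the libraries of both lines overlapped and the differences were -0.13 ± 0.23 and 0.06 ± 0.23 (adjusted p 0.794 and 0.930). Line 3205 lay below line 264 at 120 min (-1.10 ± 0.23, adjusted p 0.0142), and at 60 min the difference of -0.70 ± 0.23 passed with the replicate block and not without it (adjusted p 0.0894 without it, 0.0136 with it). Leaving out any 1 of the 4 libraries compared ended the 0 min call of line 264 (adjusted p 0.0813 to 0.220). For line 3205 against RAW264.7, the 0 min call ended without RAW264.7 replicate 1 (0.0908) or line 3205 replicate 2 (0.0532). The 60 min call ended without either RAW264.7 library (0.181 and 0.0929) or line 3205 replicate 2 (0.245), and the 120 min call without RAW264.7 replicate 1 (0.120) or line 3205 replicate 2 (0.106). The call between lines 3205 and 264 at 120 min ended without line 264 replicate 1 (0.0995) or line 3205 replicate 2 (0.0982). Without line 264 replicate 2 or line 3205 replicate 1, the 60 min difference between these lines was called (0.0491 and 0.0493). With only the groups compared in the fit, the 60 min call of line 3205 against RAW264.7 (adjusted p 0.0513) and the 120 min call of line 3205 against line 264 (0.105) ended. By edgeR that 60 min call had an adjusted p of 0.0516, and without the intensity trend it was 0.0817. The 0 min call of line 264 also ended without the trend, without the filter and with all 18 libraries in 1 fit (0.0543 to 0.0957).

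Itgal, the αL subunit of LFA-1, was several-fold higher in both edited lines than in RAW264.7. In normalized reads, its libraries of line 3205 held 3023 and 3267 at 0 min, 2758 and 3186 at 60 min and 2529 and 3384 at 120 min. Its libraries of line 264 held 4296 and 4941 at 0 min, 4870.2 and 4544 at 60 min and 5727 and 4994 at 120 min. Its RAW264.7 libraries held 726 and 648 at 0 min, 749.7 and 494 at 60 min and 1209 and 918 at 120 min. At each time, line 264 held the highest 2 libraries, line 3205 the next 2 and RAW264.7 the lowest 2. Over RAW264.7 the log2 difference of line 3205 was 2.19 ± 0.18, adjusted p 4.43e-05 at 0 min, 2.28 ± 0.18, adjusted p 3.45e-05 at 60 min and 1.47 ± 0.18, adjusted p 0.000614 at 120 min. That of line 264 was 2.75 ± 0.18, adjusted p 8.65e-06 at 0 min, 2.95 ± 0.18, adjusted p 5.31e-06 at 60 min and 2.34 ± 0.18, adjusted p 2.70e-05 at 120 min. These 6 calls held without any 1 library. Line 3205 was lower than line 264 at 60 min (-0.67 ± 0.18, adjusted p 0.0481) and at 120 min (-0.87 ± 0.18, adjusted p 0.0155), and at 0 min the difference of -0.55 ± 0.18 had an adjusted p of 0.0953 without the replicate block and 0.0434 with it. The 60 min call ended without any 1 of the 4 libraries (0.108 to 0.276), and the 120 min call without either library of line 264 (0.108 and 0.0508) or line 3205 replicate 1 (0.124). The 60 min call also ended without the trend, without the filter and with all 18 libraries in 1 fit (0.0520 to 0.110), and the 120 min call with only the groups compared (0.0848).

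No LPS response of Itgal passed limma. The log2 fold change at 120 min was -0.10 ± 0.18 in line 3205, 0.21 ± 0.18 in line 264 and 0.62 ± 0.18 in RAW264.7, and the RAW264.7 value had an adjusted p of 0.0620 without the replicate block and 0.0254 with it. Within RAW264.7, Itgal rose between 60 and 120 min (0.79 ± 0.20, adjusted p 0.0311), a call that ended without replicate 2 at 60 min (0.286) or replicate 1 at 120 min (0.247). That call also ended by edgeR (0.0535), without the trend (0.0647) and with only the groups compared (0.127).

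Itgb2, the β subunit shared by LFA-1, Mac-1 and the αX receptor, was lower in line 3205 than in RAW264.7 at every time. Itgb2 reached 5333 and 5288 at 0 min, 5192 and 5557 at 60 min and 7512 and 6494 at 120 min in line 3205, in normalized reads. Itgb2 reached 6931 and 7698 at 0 min, 7580.2 and 7535 at 60 min and 8339 and 8809 at 120 min in line 264. Itgb2 reached 10057 and 7922 at 0 min, 10115 and 8264 at 60 min and 12647 and 12013 at 120 min in RAW264.7. Every library of line 3205 lay below every RAW264.7 library of the same time, and its 0 and 60 min libraries agreed closely with each other. The log2 difference of line 3205 from RAW264.7 was -0.75 ± 0.14, adjusted p 0.00621 at 0 min, -0.77 ± 0.14, adjusted p 0.00528 at 60 min and -0.82 ± 0.14, adjusted p 0.00413 at 120 min. The 0 and 60 min calls ended without RAW264.7 replicate 1 (0.0637 and 0.0552). Line 264 was lower than RAW264.7 at 120 min (-0.52 ± 0.14, adjusted p 0.0365), which ended without any 1 of the 4 libraries (0.112 to 0.197), and at 0 and 60 min its differences were -0.29 ± 0.14 and -0.27 ± 0.14 (adjusted p 0.256 and 0.257). With only the groups compared in the fit, the 0 min call of line 3205 (adjusted p 0.0672) and the 120 min call of line 264 (0.0505) ended, the second also without the trend (0.0862). Line 3205 against line 264 gave -0.46 ± 0.14 at 0 min and -0.49 ± 0.14 at 60 min, which passed with the replicate block and not without it (adjusted p 0.0723 and 0.0571 without it, 0.0251 and 0.0183 with it). The LPS response at 120 min was 0.40 ± 0.14 in line 3205, 0.23 ± 0.14 in line 264 and 0.47 ± 0.14 in RAW264.7, where the replicate block brought the adjusted p to 0.0189, against 0.0687 without it. The RAW264.7 value between 60 and 120 min was 0.43 ± 0.13, likewise past the threshold with the block and not without it (0.0716 without, 0.0205 with). In both edited lines the RNA of 1 subunit of LFA-1, Itgal, was thus above RAW264.7 at 120 min while that of its partner Itgb2 was below.

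Itgam and Itgax, the α subunits of the other β2 integrins, had no call in any of the 22 comparisons, with or without the replicate block, nor by edgeR or DESeq2, and at an unadjusted p below 0.05 there was 1, of Itgax in line 3205 against line 264 at 0 min. Itgam, the αM subunit that marks macrophages and neutrophils, ranged from 6279 to 8606 normalized reads over the 6 libraries of line 3205 and from 8406 to 11120.4 in line 264, against 7150.1 to 12539.7 in RAW264.7. RAW264.7 replicate 1 lay above replicate 2 at all 3 times, by up to 1.75 times, and that spread covered all 6 libraries of line 264. Its fitted log2 difference farthest from 0 was -0.54 ± 0.29 for line 3205 over line 264 at 120 min (adjusted p 0.346). Itgax, the αX subunit used as a dendritic cell marker, was near the bottom of the measurable range, with 12 to 195 reads in a library. It ranged from 33.0 to 126 normalized reads in line 3205 and from 22.8 to 53.8 in line 264, against 31.7 to 122 in RAW264.7. The SE of its log2 fold changes was 0.52 to 0.59 (larger for response differences).

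Itga5, the α5 subunit of the fibronectin receptor, rose with LPS in every line at both times, and was lower in line 264 than in RAW264.7 and line 3205 throughout. Line 3205 had 2697 and 1968 at 0 min, 14057 and 12182 at 60 min and 34042 and 25677 at 120 min, in normalized reads. Line 264 had 1316 and 1304 at 0 min, 3476 and 3483 at 60 min and 10597 and 12156 at 120 min. RAW264.7 had 3352 and 3399.6 at 0 min, 26518.5 and 24486 at 60 min and 34805 and 33681 at 120 min. The groups of each line were fully apart at the 3 times, and line 264 held the lowest 2 libraries at every time. At 60 min the log2 fold change was 2.51 ± 0.15, adjusted p 1.18e-05 in line 3205, 1.41 ± 0.15, adjusted p 0.000857 in line 264 and 2.92 ± 0.15, adjusted p 5.32e-06 in RAW264.7. At 120 min it was 3.68 ± 0.18, adjusted p 4.47e-06 in line 3205, 3.11 ± 0.18, adjusted p 1.60e-05 in line 264 and 3.34 ± 0.18, adjusted p 8.99e-06 in RAW264.7. Between 60 and 120 min Itga5 rose again in line 3205 (1.18 ± 0.16, adjusted p 0.00169) and likewise in line 264 (1.71 ± 0.16, adjusted p 0.000192), while the change in RAW264.7 was 0.43 ± 0.16 (adjusted p 0.136, and 0.0401 with the replicate block).

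Against RAW264.7, Itga5 was lower in line 264 at 0 min (-1.37 ± 0.15, adjusted p 0.000204), 60 min (-2.87 ± 0.15, adjusted p 1.53e-06) and 120 min (-1.59 ± 0.18, adjusted p 0.000261). In line 3205 it was lower at 0 min (-0.55 ± 0.15, adjusted p 0.0315) and 60 min (-0.96 ± 0.15, adjusted p 0.00173), and at 120 min the libraries overlapped, with a difference of -0.21 ± 0.18 (adjusted p 0.518). Line 3205 lay above line 264 at 0 min (0.81 ± 0.15, adjusted p 0.00617), 60 min (1.91 ± 0.15, adjusted p 3.19e-05) and 120 min (1.38 ± 0.18, adjusted p 0.00112). The 0 min call of line 3205 against RAW264.7 ended without RAW264.7 replicate 1 (0.134), RAW264.7 replicate 2 (0.140) or line 3205 replicate 2 (0.123). The other calls of Itga5 held without any 1 library. With only the groups compared in the fit, 3 calls of Itga5 ended, those of line 3205 at 120 over 60 min (adjusted p 0.172), over line 264 at 0 min (0.137) and against RAW264.7 at 0 min (0.174). The last also ended without the intensity trend (0.0779) and with the 0 min libraries fitted in the 120 min table (0.0779). In the authors' deposited table, which appears to test against a minimum change, the 60 min response of Itga5 in line 264 has a log2 fold change of 1.41 and an adjusted p of 1.0.

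Itgav, the αV subunit, rose in RAW264.7 at 120 min and was lower in line 264 throughout. In normalized reads, its libraries of line 3205 held 5065 and 3834 at 0 min, 4346 and 3312 at 60 min and 8316 and 4198 at 120 min. Its libraries of line 264 held 2039 and 2110.3 at 0 min, 1729 and 1553 at 60 min and 1779 and 1701 at 120 min. Its RAW264.7 libraries held 3491 and 3232 at 0 min, 3739 and 2587 at 60 min and 11383 and 8179.7 at 120 min. Both RAW264.7 libraries at 120 min lay well above the other 4 of that line, those of line 264 lay below its 0 min libraries at 60 and 120 min, and the 120 min libraries of line 3205 were far apart. The log2 fold change at 120 min was 0.42 ± 0.28, adjusted p 0.559 in line 3205, -0.25 ± 0.28, adjusted p 0.733 in line 264 and 1.52 ± 0.28, adjusted p 0.00807 in RAW264.7. The RAW264.7 call ended without either 0 min library (0.0528 and 0.0716) or 120 min replicate 1 (0.0803). Between 60 and 120 min Itgav also rose in RAW264.7 (1.63 ± 0.28, adjusted p 0.00393), and this ended without 60 min replicate 2 (0.0531) or 120 min replicate 1 (0.0505). The line 3205 value for the same interval was 0.64 ± 0.28, adjusted p 0.426, and 0.0469 without 120 min replicate 2.

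Itgav was lower in line 264 than in RAW264.7 at 0 min (-0.69 ± 0.20, adjusted p 0.0491), 60 min (-0.92 ± 0.20, adjusted p 0.0120) and 120 min (-2.47 ± 0.28, adjusted p 0.000335). Line 3205 lay above line 264 at 0 min (1.09 ± 0.20, adjusted p 0.00743), 60 min (1.21 ± 0.20, adjusted p 0.00408) and 120 min (1.76 ± 0.28, adjusted p 0.00406). Against RAW264.7 the differences of line 3205 were 0.39 ± 0.20, 0.29 ± 0.20 and -0.71 ± 0.28 at the 3 times, of which the 120 min one passed with the replicate block and not without it (adjusted p 0.142 without it, 0.0274 with it). That 120 min difference was -1.20 (adjusted p 0.0124) without line 3205 replicate 1. The 0 min call of line 264 ended without any 1 of the 4 libraries (0.130 to 0.227) and under 6 other settings, edgeR among them (adjusted p 0.0502 to 0.183), and the 60 min call without RAW264.7 replicate 1 (0.103) or line 264 replicate 2 (0.0849). The 0 min call between lines 3205 and 264 ended without line 3205 replicate 1 (0.0510), and with only the groups compared in the fit the 0 and 120 min calls between them ended (adjusted p 0.0510 and 0.0582).

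Itgb1, the β1 partner of α4, α5 and αV, varied least of the 10 genes, with its highest library at 1.69 times its lowest. It ranged from 7015 to 8946 normalized reads in line 3205 and from 6947 to 8296 in line 264, against 7939.8 to 11765.5 in RAW264.7, and replicate 1 was the higher one in all 9 groups. Its 60 min libraries held 7617 and 7496 in line 3205 and 7679.7 and 7449 in line 264, against 11430.4 and 10339 in RAW264.7, and neither edited line overlapped RAW264.7. These were its only calls, with log2 differences of -0.52 ± 0.12, adjusted p 0.0134 for line 3205 and -0.52 ± 0.12, adjusted p 0.0135 for line 264. The call of line 3205 ended without RAW264.7 replicate 1 (0.110) or either of its own libraries (0.0723 and 0.0849). The call of line 264 likewise ended without RAW264.7 replicate 1 (0.110) or either of its own (0.0656 and 0.0882). With the replicate block the differences from RAW264.7 at 0 min (-0.30 ± 0.12 and -0.32 ± 0.12) and 120 min (-0.35 ± 0.14 and -0.45 ± 0.14) also passed, with adjusted p of 0.0311 and 0.0274 at 0 min and 0.0176 and 0.00484 at 120 min, line 3205 first. Without the block these 4 had adjusted p of 0.0550 to 0.126. Its LPS response at 120 min in RAW264.7 was 0.32 ± 0.14 (adjusted p 0.193, and 0.0319 with the block).

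Itga4, the α4 subunit, was lower in both edited lines before and early after LPS, and limma called its fall at 120 min in RAW264.7 alone. Itga4 reached 66016.5 and 55874 at 0 min, 59439 and 56428 at 60 min and 47083 and 45415 at 120 min in line 3205, in normalized reads. Itga4 reached 62883 and 62219.7 at 0 min, 63327 and 59903 at 60 min and 48085 and 45187 at 120 min in line 264. Itga4 reached 92778 and 103659 at 0 min, 99663 and 108129 at 60 min and 59366 and 62612 at 120 min in RAW264.7. All 6 libraries at 120 min lay below the 0 and 60 min libraries of their own line. The log2 fold change at 120 min was -0.39 ± 0.15, adjusted p 0.206 in line 3205, -0.42 ± 0.15, adjusted p 0.154 in line 264 and -0.69 ± 0.15, adjusted p 0.0167 in RAW264.7. DESeq2 called this fall in line 3205 (adjusted p 0.0172) and line 264 (0.00874) as well. The replicate block gave adjusted p of 0.0514, 0.0346 and 0.00227 in the same order of lines, and the RAW264.7 call without it ended when any 1 of the 4 libraries was left out (0.0633 to 0.134). Between 60 and 120 min Itga4 fell in RAW264.7 (-0.77 ± 0.12, adjusted p 0.00290), which held without any 1 library, while line 264 gave -0.40 ± 0.12 (adjusted p 0.143, and 0.0318 with the block). In line 3205 the limma adjusted p for this interval was 0.307. DESeq2 called the fall over this interval in line 3205 (-0.32, adjusted p 0.0238) and line 264 (-0.40, adjusted p 0.00258).

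Against RAW264.7, Itga4 was lower in line 3205 at 0 min (-0.69 ± 0.15, adjusted p 0.0120) and 60 min (-0.84 ± 0.15, adjusted p 0.00404), and in line 264 at 0 min (-0.65 ± 0.15, adjusted p 0.0168) and 60 min (-0.75 ± 0.15, adjusted p 0.00697). At 120 min the differences were -0.40 ± 0.15 for line 3205 and -0.39 ± 0.15 for line 264, with adjusted p of 0.113 and 0.129 without the block and 0.0298 and 0.0360 with it. Lines 3205 and 264 differed by -0.04 ± 0.15, -0.09 ± 0.15 and -0.01 ± 0.15 at the 3 times, with adjusted p of 0.833 or more. The 0 min call of line 264 ended without any 1 of the 4 libraries (0.0562 to 0.123), and its 60 min call without RAW264.7 replicate 2 (0.0622) or line 264 replicate 2 (0.0636). The 0 min call of line 3205 ended without RAW264.7 replicate 2 (0.0922). With only the groups compared in the fit, the 0 min calls ended in line 3205 (adjusted p 0.178) and line 264 (0.0834). Itga4 overlaps Cerkl in the RefSeq annotation, and the sources used here do not say whether reads were counted by strand, so reads of both genes cannot be told apart where they overlap.

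Itgb7, the β7 partner of α4, had the largest ratio between replicates of a group among the 10 genes, 6.54 in line 3205 at 0 min. Line 3205 had 1376 and 210.4 at 0 min, 714 and 213 at 60 min and 1337 and 708 at 120 min, in normalized reads. Line 264 had 103 and 85.5 at 0 min, 48.7 and 71.7 at 60 min and 65.8 and 128 at 120 min. RAW264.7 had 343 and 134 at 0 min, 334 and 158 at 60 min and 447.5 and 332 at 120 min. The 6 libraries of line 264 were the lowest 6 of the 18, and replicate 1 of line 3205 was far above replicate 2 at 0 min. The single call was in line 3205 over line 264 at 120 min (3.39 ± 0.77, adjusted p 0.0230), and it ended without any 1 of the 4 libraries (0.0553 to 0.150). It also ended without the trend (0.0602). At 0 and 60 min that difference was 2.51 ± 0.85 and 2.70 ± 0.85, with adjusted p of 0.104 and 0.0823 without the replicate block and 0.0116 and 0.00805 with it. Without line 3205 replicate 2 the 0 min difference was 3.86 (adjusted p 0.0170). Line 264 against RAW264.7 gave -1.94 ± 0.85 at 60 min and -2.06 ± 0.77 at 120 min, which passed with the block and not without it (0.176 and 0.122 without, 0.0315 and 0.0359 with).

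Whether the edited lines answered LPS differently from RAW264.7 was tested as a difference of responses. By limma 0 of the 10 genes were called for line 3205 at 60 min (0.00578% of all genes called) and at 120 min (0.00573%), and 0 for line 264 at 60 min (0.0173%) and 120 min (0.0229%). At an unadjusted p below 0.05 there were 0 and 2 for line 3205 and 1 and 2 for line 264. edgeR also called 0 in all 4, and DESeq2 called 0 for line 3205 and 1 at each time for line 264. Shares of all genes by edgeR and DESeq2 are not given here. The replicate block likewise called 0 for line 3205 at 60 min (0.0809% of all genes) and 120 min (0.682%), and 1 for line 264 at 60 min (0.127%) and 120 min (0.258%). Under DESeq2 and the block the 1 gene was Itga5 at 60 min and Itgav at 120 min. The log2 response of Itga5 at 60 min in line 264 minus that in RAW264.7 was -1.51 ± 0.21 (adjusted p 0.0846 without the block, 0.0131 with it). The Itgav difference at 120 min was -1.78 ± 0.40 (adjusted p 0.487 without the block, 0.0463 with it). For Icam1 the response differences from RAW264.7 were 0.24 ± 0.32 and 0.03 ± 0.32 in line 3205 and 0.69 ± 0.32 and 0.88 ± 0.32 in line 264, none of which passed.

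The other genes of the adhesion system were read from 6 lists. Of 18 further integrin subunits, 11 passed the filter on low values, and limma called 0 of them in all 6 LPS responses (0 or 1 in each at an unadjusted p below 0.05, 0 by edgeR, and 1 by DESeq2 and by the replicate block, in line 264 at 120 min). Against RAW264.7 at 0 min, 5 were higher and 0 lower in line 3205 (14.3% of all genes called), and 3 were higher and 1 lower in line 264 (13.2%). Itgb3, a β subunit that pairs with αV in the vitronectin receptor, had 297 and 90.9 normalized reads at 0 min in line 3205 libraries and 1012 and 476 in those of line 264, against 15.2 and 5.79 in RAW264.7. Its log2 difference from RAW264.7 was 3.98 ± 0.76, adjusted p 0.00655 in line 3205 and 6.05 ± 0.76, adjusted p 0.000551 in line 264, where its αV partner was lower. Itgb4, the β4 subunit that pairs with α6 in epithelia, had 1079 and 1143 normalized reads at 0 min in line 3205 libraries and 37.3 and 53.0 in those of line 264, against 8.71 and 18.5 in RAW264.7, and the difference of line 3205 from RAW264.7 was 6.34 ± 0.38, adjusted p 4.67e-06. Itga7, a laminin receptor subunit, was lower in line 264 (-1.57 ± 0.33, adjusted p 0.0118).

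Of 18 genes for integrin ligands and counter-receptors, 8 passed the filter. At 120 min of LPS 1 rose in line 3205, 0 were called in line 264 (2 at an unadjusted p below 0.05, 0 by edgeR, 1 by DESeq2 and 2 with the replicate block) and 1 rose in RAW264.7. C3, the complement protein whose fragment Mac-1 binds, was called in line 3205 (2.5 ± 0.44, adjusted p 0.0104). Spp1, which encodes osteopontin, a ligand of αV integrins, was called in RAW264.7 (1.74 ± 0.25, adjusted p 0.00206). At 120 min C3 had 10174 and 5790 normalized reads in line 3205, 13422 and 5191 in line 264 and 884 and 1009 in RAW264.7. The mean of C3 was thus higher than at 0 min in every line. Without a call, Spp1 libraries of lines 3205 and 264 also lay above their 0 min libraries at 120 min. C3 had 1559.7 and 1173 normalized reads at 0 min in line 3205 libraries and 5532 and 3069.7 in those of line 264, against 394 and 327 in RAW264.7, and its differences from RAW264.7 were 1.91 ± 0.38, adjusted p 0.00872 and 3.52 ± 0.38, adjusted p 0.000238. Jam2, an endothelial junction protein that binds α4β1, was higher in both edited lines at 0 min (1.80 ± 0.35, adjusted p 0.00669 in line 3205 and 3.26 ± 0.35, adjusted p 0.000196 in line 264). Of 5 selectin and selectin-ligand genes 3 passed the filter, and at 120 min 1 rose in line 3205, 2 in line 264 and 2 in RAW264.7. Cd44, the hyaluronan receptor that can also bind E-selectin, rose at 120 min in line 3205 (1.42 ± 0.31, adjusted p 0.0303), line 264 (1.25 ± 0.31, adjusted p 0.0496) and RAW264.7 (1.73 ± 0.31, adjusted p 0.00711). Its level at 0 min was lower in line 3205 (-1.62 ± 0.22, adjusted p 0.00100) and line 264 (-1.41 ± 0.22, adjusted p 0.00213) than in RAW264.7.

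Of 18 genes for the activation of integrins from inside the cell, 15 passed the filter. At 120 min 1 rose and 1 fell in line 3205, 1 rose and 1 fell in line 264, and 2 rose and 1 fell in RAW264.7. Rapgef2, an exchange factor for the small GTPase Rap1, stood at 13133 and 16082 at 120 min and 1187 and 1736 at 0 min in line 3205, and rose in all lines at 120 min (3.34 ± 0.20, adjusted p 1.68e-05 in line 3205, 2.09 ± 0.20, adjusted p 0.000292 in line 264 and 2.05 ± 0.20, adjusted p 0.000233 in RAW264.7). Rassf5, whose product RAPL links Rap1 to LFA-1, fell in line 3205 (-0.86 ± 0.14, adjusted p 0.00704), line 264 (-0.67 ± 0.14, adjusted p 0.0223) and RAW264.7 (-0.90 ± 0.14, adjusted p 0.00303). Against RAW264.7 at 0 min, 5 of the 15 were higher and 1 lower in line 3205 (14.3% of all genes called), and 5 were higher and 3 lower in line 264 (13.2%). With the replicate block the counts were 5 higher and 5 lower in line 3205 (26.5% of all genes) and 6 higher and 6 lower in line 264 (23.3%). Rasgrp2, which encodes the Rap1 exchange factor CalDAG-GEFI, had 89.9 and 148 normalized reads at 0 min in line 3205 libraries and 822 and 517 in those of line 264, against 0 and 2.32 in RAW264.7. Fermt3, which encodes kindlin-3, was lower in line 3205 than in line 264 at 0 min (-1.18 ± 0.12, adjusted p 0.000284). Its 0 min libraries held 7054 and 7410 normalized reads in line 3205 and 15264 and 17656 in line 264. Those of RAW264.7 held 7929 and 8902, nearer to line 3205. Of 7 genes for inhibitors of activation, all measured, 1 fell in line 3205, 1 in line 264 and 2 in RAW264.7 at 120 min, among them Rasa3, a GTPase-activating protein of Rap1 (-1.19 ± 0.25, adjusted p 0.0244 in line 3205, -1.02 ± 0.25, adjusted p 0.0456 in line 264 and -1.41 ± 0.25, adjusted p 0.00621 in RAW264.7). Of 20 focal adhesion adaptors and kinases 19 passed the filter, and at 120 min 3 rose in line 3205, 2 in line 264 and 4 in RAW264.7. Zyx, the adaptor zyxin, was among them in line 3205 (1.74 ± 0.40, adjusted p 0.0372), line 264 (1.62 ± 0.40, adjusted p 0.0472) and RAW264.7 (2.56 ± 0.40, adjusted p 0.00334). For all genes tested at 120 min, 5.03% were called in line 3205, 5.43% in line 264 and 10.6% in RAW264.7, in either direction. With the replicate block these shares were 14.3%, 16.4% and 23.7%, and more genes of the lists were called at 120 min. The activation genes then had 3 higher and 2 lower in line 3205, 4 higher and 3 lower in line 264 and 2 higher and 2 lower in RAW264.7. The inhibitors had 2 higher and 3 lower, 0 higher and 2 lower and 0 higher and 3 lower in the same order of lines. The focal adhesion genes had 6 higher and 0 lower, 5 higher and 0 lower and 9 higher and 1 lower. Of the ligands and counter-receptors, RAW264.7 had 4 higher and 1 lower, and of the selectin genes line 3205 had 2 higher and 0 lower.

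For each gene the closest followers across the libraries were looked up by Pearson r of log2 values over the 12 libraries that the 60 and the 120 min tables each hold, among 10133 genes. The 2 tables share their 0 min libraries, and lines and times move r together, so r describes the pattern only. Icam1 was most like Junb (r 0.985 and 0.975 in the 60 and 120 min tables), Sdc4 (0.974 and 0.984) and Bcl10 (0.980 and 0.978). Itga5 was most like Vmp1 (0.973 and 0.964), Tlr2 (0.952 and 0.968) and Myc (0.940 and 0.972). Itgal was most like Trem1 (0.996 and 0.982), Il18rap (0.989 and 0.981) and Trim66 (0.987 and 0.977). Itgav was most like Dcstamp (0.956 and 0.948), Itgb1 most like Cdc42 (0.984 and 0.985), Itgb2 most like Gsap (0.982 and 0.930), Itga4 most like Pik3r2 (0.920 and 0.969), Itgb7 most like Akr1b8 (0.929 and 0.894) and Itgam most like Ube2q2 (0.883 and 0.830). Itgax was under the mean of 50 needed for this.

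In primary bone marrow macrophages the ChIP tables give 1 signal per gene, target and time, in the authors' scaling, so that 60 min and 0 min values have no replicate check. H3S31ph is H3.3 phosphorylated at serine 31, H3S28ph is phosphorylation of serine 28 of H3, H3K36me3 and H3K36me2 are methylations of lysine 36, and H3K27ac is an acetylation found at active promoters and enhancers. Of the 193 genes listed, 187 have RNA that is higher with LPS by the authors' log2 fold change. Ranks and medians below are thus mostly among genes that rise with LPS, not among all genes. The H3S31ph signal of Icam1 was 32.1 at 60 min and 1.88 at 0 min, a ratio of 17.1 that ranked 10 of 193 genes, whose median ratio was 3.83. Its level at 0 min ranked 76 of 193 and that at 60 min 21. The H3K36me3 signal was 9.09 at 60 min and 3.93 at 0 min, a ratio of 2.31 (rank 32, median 1.59). The H3K27ac signal was 4.84 at 60 min and 2.66 at 0 min, a ratio of 1.82 (rank 26, median 1.16). By ratio these 3 marks of Icam1 ranked between 10 and 32 of 193.

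The ratios of the other targets of Icam1 stood near the middle of the table. Their signal levels at 0 and 60 min ranked 30 and 45 of 193 for H3.3, 182 and 159 for H3S28ph and 115 and 118 for H3K36me2. H3.3 itself was 2.94 at 60 min and 1.49 at 0 min, a ratio of 1.97 (rank 91, median 1.96). H3S28ph was 1.43 at 60 min and 0.584 at 0 min, a ratio of 2.45 (rank 110, median 2.58). H3K36me2 was 1.15 at 60 min and 1.16 at 0 min, a ratio of 0.992 (rank 107, median 1.0). Divided by the H3.3 ratio of the same gene, the H3S31ph ratio of Icam1 was 8.68 (rank 11, median 2.07), and the H3K27ac ratio was 0.924 (rank 47, median 0.654). Vcam1, the ligand of α4 integrins, and Sele, which encodes E-selectin, are also in the table, and their H3S31ph ratios were 1.61 (rank 169) and 0.997 (rank 191). In the authors' deposited table for primary macrophages the LPS log2 fold change of Icam1 RNA is 3.41 with a standard error of 0.13, rank 60 of 193. The tables for 60 and 120 min hold that same value, so its time cannot be told from them.

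**Figure D4:**
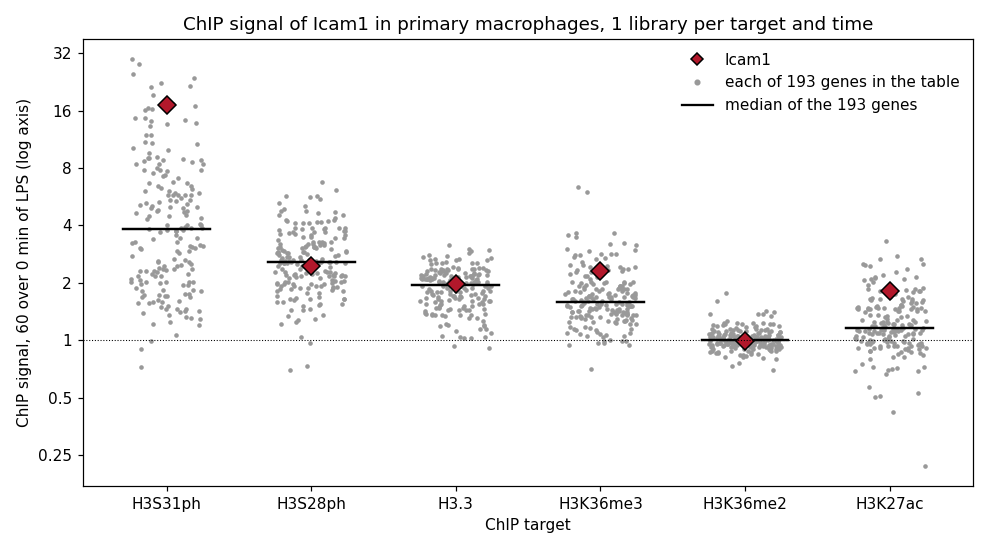
ChIP signal at 60 min of LPS over that at 0 min (log axis) for 6 targets in primary bone marrow macrophages, with 1 library per target and time. Grey points are the 193 genes of the authors' table, black lines their medians and diamonds Icam1. The diamond lies near the top for H3S31ph, above the median for H3K36me3 and H3K27ac, and at the median for H3.3, H3S28ph and H3K36me2.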

How the data were processed

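RNA was measured in 18 libraries of 3 cell lines (9 groups of 2) and histone marks by ChIP in 12 libraries of primary macrophages, and the other 44 of the 74 samples were not analysed here. Reads were processed with Trim Galore 0.5.0, STAR 2.4.2, featureCounts of Subread 1.4.6 and DESeq2 under R 3.4.0, and ChIP reads with Bowtie2 (2.3.4.1), SAMtools (1.5), Picard (2.14.0) and deepTools (2.5.4), on mm10, per the submitters' processing notes. The deposited RNA values are a signal of reads divided by 1 size factor per library. Dividing by the smallest step gave whole reads for 100.0% of values within 0.1 read in every library, which gave the depth (13.1 M to 53.9 M reads). The ChIP tables hold a deposited signal per gene, whose scaling the sources used here do not give. The authors' deposited log2 fold changes and p-values are printed only where named, and their deposited test statistic, a score, was not used.

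The main test was limma 3.58.1 (R 4.3.3, intensity trend) on log2(value + 1), for genes with a mean of at least 1, with the 12 libraries of the 60 min or the 120 min table in 1 fit. edgeR 4.0.16 and DESeq2 1.42.0 ran on the recovered reads as alternatives, and Python 3.11.15 (pandas 2.3.3, matplotlib 3.10.9) made the summaries and figures. The limma step was tested on simulated data with known changes, in which libraries were drawn independently, without a replicate effect. That test cannot show how the step behaves where same-numbered samples deviate together, as they did here. The other alternatives were pseudocounts of 0.5 and 5, a fit without the filter or without the trend, the replicate number as a block, only the groups compared, leaving out each library in turn, and, added after the data were seen, all 18 libraries in 1 fit. Replicate numbers were taken to pair samples, since same-numbered samples deviated together in all 15 pairs of groups (r 0.156 to 0.564 in the 60 min table and 0.224 to 0.556 in the 120 min table). The main fit held no replicate term, so its calls do not use this pairing. Over all genes the block called at least 1.76 times as many as the main fit in each of 22 comparisons.

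The members and lists were chosen with earlier results of these data known. All 10 members were named in every comparison. Of each list, up to 2 genes per direction and comparison could be named, the called ones with the log2 fold change farthest from 0 whose higher group averaged 50 or more. The 3 genes most like each member were ranked by mean r, predicted genes aside.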

Additional observations from a re-analysis of the deposited data

Results flagged for a closer look

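Itga5 was flagged because its LPS response at 60 min differed between line 264 and RAW264.7 by a test of the difference itself in some fits, though not in the limma fit without the replicate block. The log2 response was 1.41 in line 264 and 2.92 in RAW264.7, a difference of -1.51 ± 0.21. Its adjusted p was 0.0846 by limma, 0.0131 with the block, 0.0352 with only the groups compared and 1.46e-07 by DESeq2.

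Itgav was flagged in the same way at 120 min. The log2 response was -0.25 in line 264 and 1.52 in RAW264.7, a difference of -1.78 ± 0.40. Its adjusted p was 0.487 by limma, 0.0463 with the block and 0.0181 by DESeq2.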

How the results depend on the processing

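Of the 57 called results of the 10 genes 0 changed direction under any alternative run, and of the 163 not called 63 changed sign under at least 1. Pseudocount 5 changed no call. With 2 libraries per group, of 57 called gene results 33 held without any 1 library, and 4, 7, 6 and 7 were lost under 1, 2, 3 and 4 of the left-out libraries. A group left with 1 library was assumed to vary like the others. The replicate block ended no call. With it the number of the 10 genes called was 7 at 120 min in RAW264.7, 5 at 0 min and 6 at 60 min in line 3205 against line 264, 7 in line 264 and 6 in line 3205 against RAW264.7 at 120 min, 1 in the response difference of line 264 at 60 min and 1 at 120 min, and, at 120 against 60 min, 5 in RAW264.7 and 2 in line 264. DESeq2 called 5 at 0 min and 6 at 60 min in line 3205 against line 264, 7 in line 264 against RAW264.7 at 120 min, 1 in each response difference of line 264 and 2 at 120 against 60 min in lines 3205 and 264. With only the groups compared the count was 2 in line 3205 against RAW264.7 at 0 min, 0 at 0 min and 2 at 120 min in line 3205 against line 264, 1 in the response difference of line 264 at 60 min and 0 in line 3205 at 120 against 60 min. For line 264 against RAW264.7 at 0 min it was 3 without the trend, 3 without the filter and 3 with all 18 libraries in 1 fit. The number called among all genes changed as well. Its ratio to the main fit had a median of 2.62 with the replicate block and 1.55 by DESeq2 (up to 91). With only the groups compared that median was 0.623. Shares of all genes by DESeq2, and with the block at 120 against 60 min, are not given here, so those counts have no background. The cause of these changes was not tested.

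Leaving out 1 library gave 2 to 3 calls in RAW264.7 at 120 min, 2 in line 264 and 2 to 5 in line 3205 against RAW264.7 at 0 min, 2 to 4 and 3 to 5 at 60 min, 3 and 2 to 4 at 120 min, and 1 to 3, 2 to 3 and 2 to 3 in line 3205 against line 264 at 0, 60 and 120 min. At 120 against 60 min it gave 1 to 2 calls in line 3205 and 1 to 3 in RAW264.7. Divided by the H3.3 ratio, the Icam1 ChIP ratios were 8.68 for H3S31ph, 1.18 for H3K36me3, 1.25 for H3S28ph, 0.505 for H3K36me2 and 0.924 for H3K27ac, the last turning below 1, where the median gene stood at 0.654. Above the lower quartile of signal H3S28ph gave no value for Icam1.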
